A study of Homo sapiens with 2 samples.

Results

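The genes examined were those of AMP-activated protein kinase (AMPK), of the LKB1 complex that activates it and of CAMKK2, the second kinase known to activate it. They were 10 genes of the 27685 gene IDs in the tables, taken by gene name and NCBI gene ID: PRKAA1, PRKAA2, PRKAB1, PRKAB2, PRKAG1, PRKAG2, STK11, CAB39, STRADA and CAMKK2. Each had 1 row per table. The list was drawn up with earlier results of these data known. The cells were H1299, an established human non-small cell lung cancer line, either untreated (control, 1 library) or given 5 mM metformin (1 library); the sources used here do not say for how long. Both groups came from the same line with no other agent or gene change named. Metformin is a biguanide antidiabetic drug that inhibits mitochondrial complex I, and the study asked how it alters mRNA levels in lung cancer cells.

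AMPK is a heterotrimer that senses cellular energy. Its alpha subunit is the kinase, the beta subunit is the scaffold that also binds glycogen, and the gamma subunit binds AMP, ADP and ATP. When energy falls, the gamma subunit binds AMP, and the alpha subunit stays phosphorylated on a threonine of its activation loop. LKB1, the product of the tumour suppressor gene STK11, phosphorylates that threonine. It works only in a complex with the pseudokinase STRAD and the scaffold MO25, encoded by STRADA and CAB39. CAMKK2 phosphorylates the same threonine in response to calcium. STK11 is frequently lost in lung cancer, and cells without it respond poorly to metformin through AMPK. All of these steps act on protein, by phosphorylation and nucleotide binding, and the libraries measured mRNA only.

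The site on which both upstream kinases converge is shown here in the coding sequence of the 2 catalytic subunits, since it is what the other members act on. The sequences are 51 bases of the canonical GENCODE transcripts on GRCh37, 5′ to 3′ on the coding strand, with the codon of the activation loop threonine in capitals.
PRKAA1: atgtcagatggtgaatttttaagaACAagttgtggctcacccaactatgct
PRKAA2: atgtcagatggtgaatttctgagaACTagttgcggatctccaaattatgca
The threonine is codon 183 of 559 in this transcript of PRKAA1, in exon 5 on chromosome 5 at 40769565 to 40769567 of the minus strand. In PRKAA2 it is codon 172 of 552, in exon 5 on chromosome 1 at 57159476 to 57159478 of the plus strand. The windows differ at 9 bases in 8 of 17 codons and encode the same amino acids. Over their whole coding sequences the 2 genes are 71.6% identical, and the longest run of bases their transcripts share is 24. The longest shared run was 20 bases for PRKAB1 with PRKAB2 and 12 for PRKAG1 with PRKAG2. All are shorter than the reads, which were taken as 101 bases, so a full-length read of these transcripts does not match both paralogs exactly.

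Levels are given in TPM, a transcript abundance that takes account of length and is relative to the other transcripts of a library, so that genes can be set side by side. Aligned bases came to 5.80 Gb in control and 6.40 Gb in metformin, or about 28.7 M and 31.7 M read pairs. With 1 library per group there was no replicate check, no test was run and no p-value is given. All intervals are 95% intervals of read counting and leave out variation between cultures. They are exact (Clopper-Pearson) for the ratio of a single gene, exact Poisson for its level, and normal approximations for shares and sums. A TPM ratio is metformin over control. In the bulk RNA of a culture, fewer cells that express a gene and less RNA per cell cannot be told apart. In control and metformin the epithelial keratin KRT8 was listed at 269 and 521 TPM, KRT18 at 553 and 954 and VIM at 4378 and 4962, while EPCAM, CDH1, KRT19, NKX2-1 and SFTPC were below 0.5 TPM in each library. Of 5 markers of other cell types only CD68, a lysosomal glycoprotein, exceeded 1 TPM, at 148 and 115, and CD3E and PECAM1 were listed at 0.

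All 10 genes were measured, at 1 TPM or more in both libraries, and the shifts between libraries were small. No member differed by 1.5-fold or more on the scale of log2(TPM + 1). Of the 14078 genes measured in at least 1 library 12.4% did, or 10.8% with a minimum of 5 TPM. At such shares few of 10 genes would pass, so the count does not set the members apart. At 2-fold the counts were 0 of 10 members and 2.76% of genes. CAMKK2 lay nearest to the threshold, higher in metformin at a ratio of 1.39. PRKAA1 lay farthest on the other side, at 0.786. In all, 8 of 10 members lay below 0, their median log2 difference being -0.14, and so did 59.7% of measured genes, whose median was -0.08. The counting interval of the ratio held 1 for 2 members, lay below 1 for 6 and above 1 for 2, and 66.9% of 13185 measured genes of known length likewise had an interval without 1. A ratio whose interval does not hold 1 was therefore the common case at this depth.

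**Figure D1:**
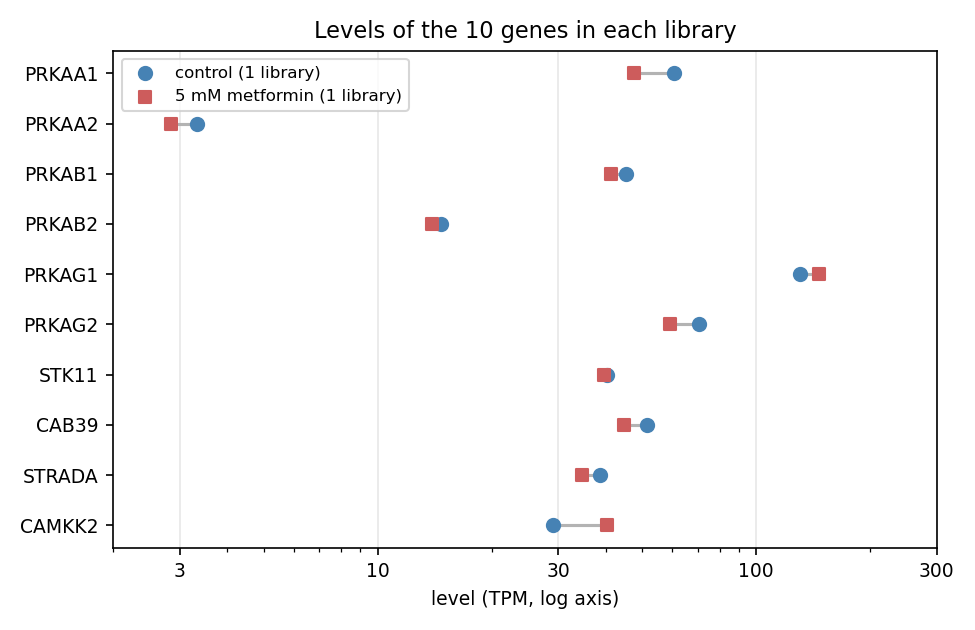
Levels of the 10 genes in TPM on a log axis, 1 circle for the control library and 1 square for the metformin library, joined by a line. PRKAG1 is the highest and PRKAA2 the lowest in both libraries, and only PRKAG1 and CAMKK2 have the metformin square to the right.

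The catalytic alpha subunit was almost wholly alpha1. PRKAA1 (NCBI gene 5562, chromosome 5, 40759481 to 40798297 of hg19), which encodes alpha1, was listed at 60.6 TPM in control against 47.6 in metformin. Its ratio was 0.786 (0.751 to 0.823), the lowest of the 10 genes. PRKAA2, which encodes alpha2, the form typical of skeletal muscle, was listed at 3.33 TPM in control against 2.85 in metformin, a ratio of 0.855 (0.740 to 0.991). PRKAA1 therefore made up 94.8% of alpha TPM in control (95% counting interval 94.3 to 95.3) and 94.4% in metformin (93.8 to 94.9). That change of -0.43 percentage points had an interval of -1.21 to 0.34, so no shift between the catalytic isoforms was detectable at this depth. The summed alpha level was 63.9 TPM in control against 50.5 in metformin, a ratio of 0.790 (0.756 to 0.825).

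The transcripts of PRKAA1 and PRKAA2 have the lowest GC contents of the group, 36.9% and 35.2%. Over 13185 measured genes the log2 difference went with GC content at a Spearman correlation of 0.35, across genes that are not independent. Measured genes within 2 GC points of PRKAA1 had a median log2 difference of -0.26, against -0.34 for PRKAA1 itself. With the trend over GC content and length removed, PRKAA1 stood at -0.12 and PRKAA2 at 0.07, so the sign of PRKAA2 turned and the summed alpha ratio became 0.921. Over the 10 members GC content and the difference had a Spearman correlation of 0.64, given as a description with n = 10.

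The scaffold beta subunits kept close to their control levels. PRKAB1 (NCBI gene 5564, chromosome 12, 120105761 to 120119429), which encodes beta1, was listed at 45.2 TPM in control against 41.4 in metformin, a ratio of 0.917 (0.847 to 0.993). PRKAB2, which encodes beta2, was listed at 14.7 and 13.9 TPM, at a ratio of 0.949 whose interval of 0.868 to 1.04 held 1. The beta1 share of beta TPM was 75.5% in control and 74.8% in metformin, a change of -0.63 points (-2.84 to 1.57) that was not detectable at this depth. Both genes were slightly lower, and PRKAB2 turned from -0.07 to 0.06 on the log2 scale without the GC and length trend and was also above 0 after centring on the bulk of genes. The listed span of PRKAB2 on chromosome 1 lies within the spans, over 1 Mb long, of the repeated NBPF11 and NBPF19 genes on the same strand, listed at 23.3 and 8.42 TPM in control. When all rows of the genes that overlap PRKAB2 on its strand were added to it, rows at other loci included, the beta1 share was 47.1% in control and 46.2% in metformin. That sum credits PRKAB2 with the TPM of other genes, so it is an extreme and not a measure of beta2. Whether reads were misassigned between these genes was not tested.

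Gamma subunits were the most abundant class, and their makeup differed most between the libraries. PRKAG1 (NCBI gene 5571, chromosome 12, 49396055 to 49412629), which encodes gamma1, was the highest member in both libraries, at 131 TPM in control against 146 in metformin. Its ratio was 1.12 (1.07 to 1.18). PRKAG2 (NCBI gene 51422, chromosome 7, 151253201 to 151574316), which encodes gamma2, a subunit known for heart disease mutations, went the other way. It was listed at 70.5 TPM in control against 59.3 in metformin, a ratio of 0.841 (0.797 to 0.887). The gamma1 share of gamma TPM was thus 64.9% in control (63.7 to 66.1) and 71.2% in metformin (70.1 to 72.2), a change of 6.25 points (4.65 to 7.85). PRKAG3, the gamma3 gene of glycolytic muscle, was listed at 0 in both libraries. Since the members of a class share each library, the gamma change does not depend on how the libraries were scaled. It stood at 4.68 points when coverage replaced TPM, with gamma1 shares of 75.5% and 80.2%. PRKAG1 overlaps DDN-AS1 on the other strand, listed at 5.45 and 4.62 TPM, and the sources used here do not say if reads were counted by strand.

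**Figure D2:**
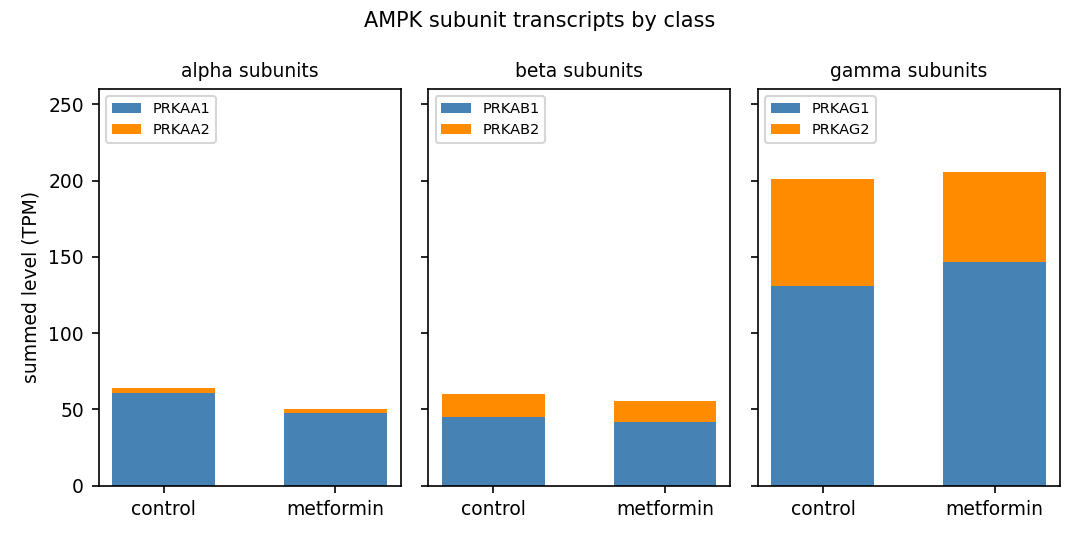
Summed TPM of the alpha, beta and gamma subunits in the control and metformin libraries, each bar divided into its 2 expressed genes. The gamma bars reach 201 and 206 TPM against 63.9 and 50.5 for alpha and 59.9 and 55.4 for beta, and the PRKAG1 part of the gamma bar is larger in metformin.

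Compared by class, alpha and beta transcripts stood at nearly equal sums in control, 63.9 and 59.9 TPM, and gamma transcripts at 3.15 times the alpha sum. In metformin the alpha sum was below the beta sum, 50.5 against 55.4 TPM, and gamma stood at 4.08 times alpha. Without the GC and length trend the alpha sum stayed above the beta sum in metformin, at 58.8 against 55.7, and gamma stood at 3.57 times alpha. By coverage gamma stood at 2.41 times alpha in control and 3.21 times in metformin, so the proportion depends on the unit. The summed ratios were 0.790 for alpha, 0.925 (0.868 to 0.985) for beta and 1.02 (0.984 to 1.06) for gamma. In both libraries the most abundant gene of each class was the same: PRKAA1, PRKAB1 and PRKAG1.

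Transcripts of all 3 genes of the LKB1 complex were detected in both libraries. STK11 (NCBI gene 6794, chromosome 19, 1205798 to 1228434) was listed at 40.3 TPM in control against 39.6 in metformin, with a ratio of 0.985 (0.920 to 1.05), the nearest to 1 of the 10 genes. Its partner STRADA was listed at 38.6 and 34.6 TPM, at a ratio of 0.896 (0.821 to 0.978). CAB39, which encodes MO25 alpha, was listed at 51.5 and 44.9 TPM, at a ratio of 0.871 (0.823 to 0.923). Relative to STK11 in TPM, STRADA stood at 0.960 and CAB39 at 1.28 in control, and at 0.874 and 1.13 in metformin. By coverage STRADA stood at 0.795 and 0.724 of STK11 and CAB39 at 0.0974 and 0.0864, so the proportions depend on the unit. The sign of STK11 was not stable: its log2 difference was -0.02 as deposited, 0.07 after centring on the bulk of genes and -0.20 without the GC and length trend, its transcript having the highest GC content of the group at 67.0%.

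The second STRAD and MO25 genes stood close to their control levels. STRADB was listed at 29.0 TPM in control against 27.8 in metformin, and CAB39L at 7.93 and 7.86. Their ratios were 0.961 (0.871 to 1.06) and 0.990 (0.854 to 1.15), so both intervals held 1. STRADA exceeded STRADB 1.33-fold in control and 1.24-fold in metformin.

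CAMKK2 was the member with the largest difference. CAMKK2 (NCBI gene 10645, chromosome 12, 121675495 to 121736111) was listed at 29.1 TPM in control against 40.4 in metformin, a ratio of 1.39 (1.31 to 1.47). Of all measured genes, 91.6% had a lower log2 difference than its 0.46. Relative to STK11 it stood at 0.723 in control and 1.02 in metformin, so that in TPM the 2 upstream kinases were listed at nearly the same level in the treated library. By coverage CAMKK2 stood below STK11 in both, at 0.523 and 0.734 of its level. CAMKK1, its paralog, which activates other calmodulin-dependent kinases, was listed at 3.04 and 4.14 TPM, at a ratio of 1.36 (1.09 to 1.71). The CAMKK2 transcript has a GC content of 53.7%, and genes within 2 GC points of it had a median difference of -0.000844. Its difference ranged from 0.38 without the GC and length trend to 0.55 after centring, and stayed under 1.5-fold in each alternative run.

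**Figure D3:**
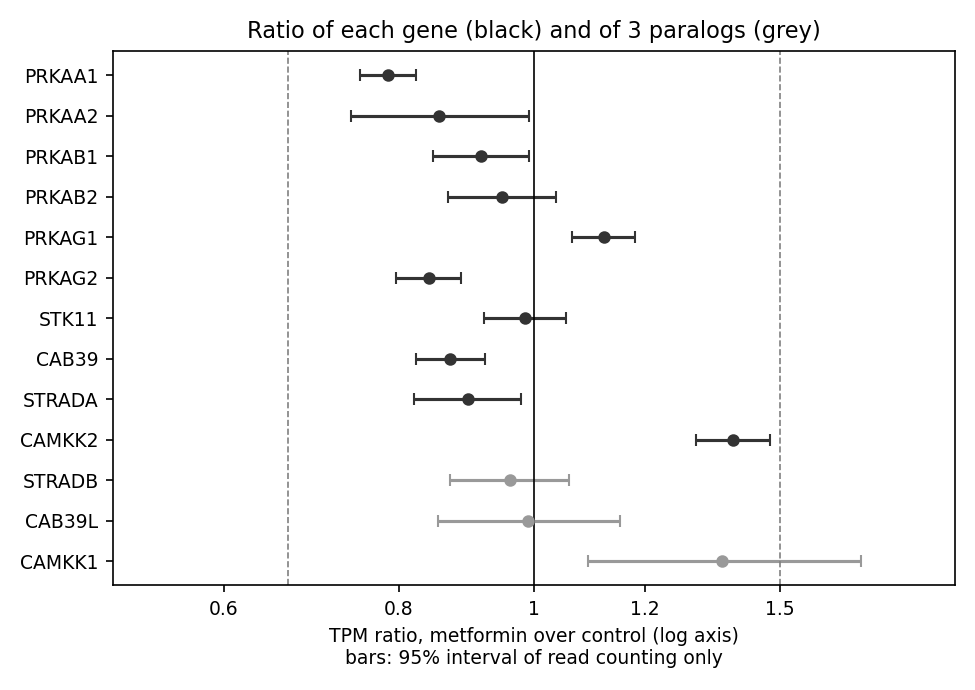
TPM ratio of metformin over control on a log axis for the 10 genes (black) and 3 paralogs (grey), with 95% intervals of read counting only; dashed lines mark 1.5-fold in each direction. CAMKK2 at 1.39 and PRKAA1 at 0.786 are the ends of the range, and no point lies beyond a dashed line.

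Because CAMKK2 was the highest in ratio, the 250 bases before an annotated start of the gene are shown, from RefSeq on GRCh38.p14 (chr12:121296710-121296959, minus strand, printed 5′ to 3′ in the direction of transcription). Whether these cells use this start was not tested. Capitals mark every GGGCGG, a GC box bound by SP1-type factors, on either strand; runs of capitals longer than the motif are adjoining or overlapping matches.
CAMKK2: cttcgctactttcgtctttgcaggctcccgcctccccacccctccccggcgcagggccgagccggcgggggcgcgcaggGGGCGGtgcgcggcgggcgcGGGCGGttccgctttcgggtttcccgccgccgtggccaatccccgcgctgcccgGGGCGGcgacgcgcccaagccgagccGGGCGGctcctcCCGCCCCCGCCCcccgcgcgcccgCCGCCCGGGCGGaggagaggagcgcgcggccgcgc
The window held GGGCGG 5 times on the printed strand and 3 times on the other, and its GC content was 82.8%, against a median of 58.0% over 35116 promoter windows of the same length. The motif was in 42.6% of these windows and in 10 of the 14 windows of the members. Those 14 windows belonged to 9 members, 8 of which had it in at least 1 window, and STRADA was not matched. Another 3 motifs were searched on both strands: TGATGNAA, a core of the C/EBP-ATF element that ATF4 binds; TGACGTCA, the cAMP response element; and CACGTG, an E-box read by MYC, TFEB and MondoA. They were in 3.14%, 1.65% and 6.34% of windows, and none was in the 14 windows of the members, which says only that these letters are not there.

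In the order of levels by TPM, PRKAG1 was followed in control by PRKAG2, PRKAA1, CAB39, PRKAB1, STK11, STRADA, CAMKK2, PRKAB2 and PRKAA2. Of neighbours in that order only STK11 and STRADA had overlapping counting intervals, 38.3 to 42.3 and 36.3 to 41.1 TPM. These intervals rest on pairs from FPKM. By coverage CAB39 had 183 pairs in control in place of 2401, so its interval would be wider, and overlaps were not recounted on that basis. In metformin the order was the same except that CAMKK2 stood between PRKAB1 and STK11. There PRKAA1, CAB39, PRKAB1, CAMKK2 and STK11 lay between 47.6 and 39.6 TPM, each overlapping the next. By coverage per gigabase PRKAG2 stood in both libraries behind PRKAG1, PRKAA1, PRKAB1 and STK11, and CAMKK2 stayed below STK11.

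The tables list genes and not transcripts, so isoforms of 1 gene could be read only indirectly, from coverage and FPKM. Coverage is the mean depth over the exons of a gene and FPKM, like TPM, sums over its transcripts. Coverage per FPKM never passed a ceiling of 5.80 in control and 6.40 in metformin, and 49.0% of 12098 genes above 1 FPKM in both libraries lay within 1% of it in control. By the definitions of the 2 units, a gene lies under the ceiling where its transcripts are on average shorter than all its exons joined. PRKAA1, PRKAA2, PRKAB1, PRKAB2 and STK11 stood at 98.6% of the ceiling or more in each library. PRKAG1 stood at 88.5% in control and 88.0% in metformin, STRADA at 82.8% and 82.9%, and CAMKK2 at 72.4% and 72.0%. PRKAG2, whose long and short forms start at separate promoters, stood at 53.1% and 53.7%. The value in metformin over that in control was between 0.994 and 1.01 for PRKAG1, PRKAG2, STRADA, CAMKK2 and CAB39. The central 95% of the 4608 genes that, like these members, were under 95% of the ceiling ran from 0.913 to 1.09. A change in the mean transcript length of those members was therefore not seen, although 2 mixtures of isoforms can have the same mean length. PRKAA1, PRKAA2, PRKAB1, PRKAB2 and STK11 stood so near the ceiling that their values had little room to move, and no conclusion was drawn for them.

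CAB39 stood apart, at 7.61% of the ceiling in control and 7.63% in metformin, a level below which only 161 of the 12098 genes lay. Its coverage was 9.64 and 9.52, against 99.0 and 110 for STK11, although its TPM was the higher of the pair in both libraries. By coverage per gigabase CAB39 was the second lowest of the 10 genes in each library, whereas by TPM it was the fourth highest, so its place among the members depends on the unit. An estimate of its read pairs from coverage gave 183 in control and 180 in metformin, in place of 2401 and 2366 from FPKM. The interval of its ratio of 0.871 then widened to 0.704 to 1.07 and held 1. What set its coverage apart was not tested.

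**Figure D4:**
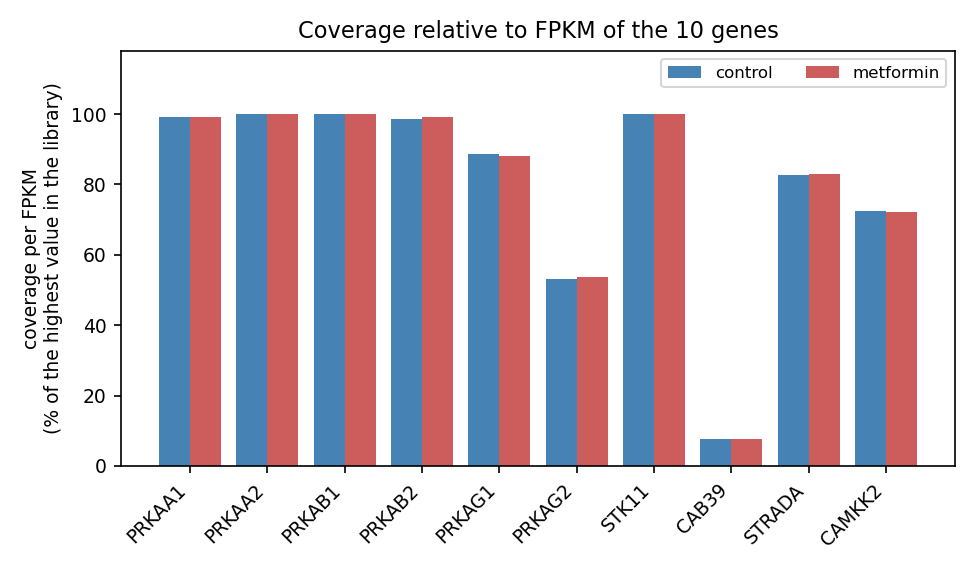
Coverage per FPKM of the 10 genes as a percent of the highest value in the library, control in blue and metformin in red. CAB39 stands at 7.61% and 7.63%, PRKAG2 at 53.1% and 53.7%, and for each gene the bars of the 2 libraries are nearly equal.

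Around the core genes, 7 lists of the pathway held 95 measured genes, of which 8 passed 1.5-fold, 5 higher and 3 lower, or 8.42% against 12.4% of all measured genes. One passed 2-fold. Of 13 further activators and adaptors, 6 lay above 0 and 7 below, with a median of -0.05. SESN2, a stress-induced leucine sensor that binds AMPK, was the gene past 2-fold, at 26.8 and 54.7 TPM, a ratio of 2.04 (1.90 to 2.19), while SESN1 stood at 0.822. CALM2, which encodes calmodulin, the calcium sensor that switches on CAMKK2, was listed at 493 and 740 TPM, just past 1.5-fold. CALM3, which encodes the same protein, was listed at 279 and 254 TPM.

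Kinases and phosphatases that restrain AMPK mostly lay below 0, as did 59.7% of all measured genes. Of 14 inhibitory kinases and phosphatases 13 did, with a median of -0.14. After centring on the bulk of genes that median was -0.05, against 0.01 for all measured genes. The count below 0 thus depends on how the libraries are scaled, and it was not retaken after centring. PPP1CC, a catalytic subunit of protein phosphatase 1, was listed at 256 TPM in control against 161 in metformin, a ratio of 0.627 (0.606 to 0.649), and passed 1.5-fold. PPP6C stood at 0.760, GSK3B at 0.997 and AKT1 at 1.04. A separate list held 13 genes: ubiquitin ligases, chaperones and other stability factors of AMPK and LKB1. Of these, 11 lay below 0, with a median of -0.15, or -0.07 after centring. SKP2, a ubiquitin ligase subunit that acts on LKB1 and a gene of S phase entry, was listed at 38.0 and 22.1 TPM, at a ratio of 0.581 (0.538 to 0.626). HSP90AA1, a chaperone of LKB1, stood at 0.697, MKRN1, a ligase for AMPK alpha, at 1.15, and STUB1, a chaperone-linked ligase, at 1.33.

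Among 25 genes whose proteins AMPK phosphorylates, 10 lay above 0 and 15 below, with a median of -0.06, and HDAC5 passed 1.5-fold. HDAC5, a class IIa histone deacetylase, was listed at 15.6 and 25.6 TPM, at a ratio of 1.64 (1.52 to 1.78). ACACA, acetyl-CoA carboxylase 1 and the classic AMPK substrate, was listed at 45.4 and 58.6 TPM, at a ratio of 1.29 (1.25 to 1.34). PFKFB2, an activator of glycolysis, stood at 0.807 and EP300, an acetyltransferase, at 0.844.

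Of 11 measured AMPK-related kinases, which LKB1 also phosphorylates, 5 lay above 0 and 6 below, with a median of -0.01. NUAK2 was listed at 6.34 and 12.3 TPM, at a ratio of 1.95 (1.68 to 2.26), and MARK4 at 31.0 and 43.9. MARK1 and SNRK stood at 0.761 and 0.883.

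Among genes of adenine nucleotide balance, members of 1 enzyme family differed in opposite directions. AK1, the cytosolic adenylate kinase, which makes the AMP that AMPK senses, was listed at 36.1 and 55.0 TPM, at a ratio of 1.53 (1.41 to 1.65). AK3 and AK4, mitochondrial members of the family, stood at 0.552 (0.507 to 0.601) and 0.681. APRT, which salvages adenine to AMP, stood at 1.19. Over the 13 measured genes of the list 6 lay above 0 and 7 below, with a median of -0.11.

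Of the transporters that carry metformin, the organic cation transporter SLC22A3 was listed at 0 in both libraries. SLC29A4, a monoamine transporter, was listed at 4.32 and 4.53 TPM and the exporter SLC47A1 at 4.14 and 4.32. In the lysosomal route by which low metformin is known to reach AMPK, PSENEN, which encodes the metformin-binding PEN2, was listed at 233 and 260 TPM and ATP6AP1, the pump subunit it joins, at 83.3 and 76.0. The pump subunit ATP6V1A stood at 0.706 (0.665 to 0.750) and ATP6V0D1 at 1.09.

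**Figure D5:**
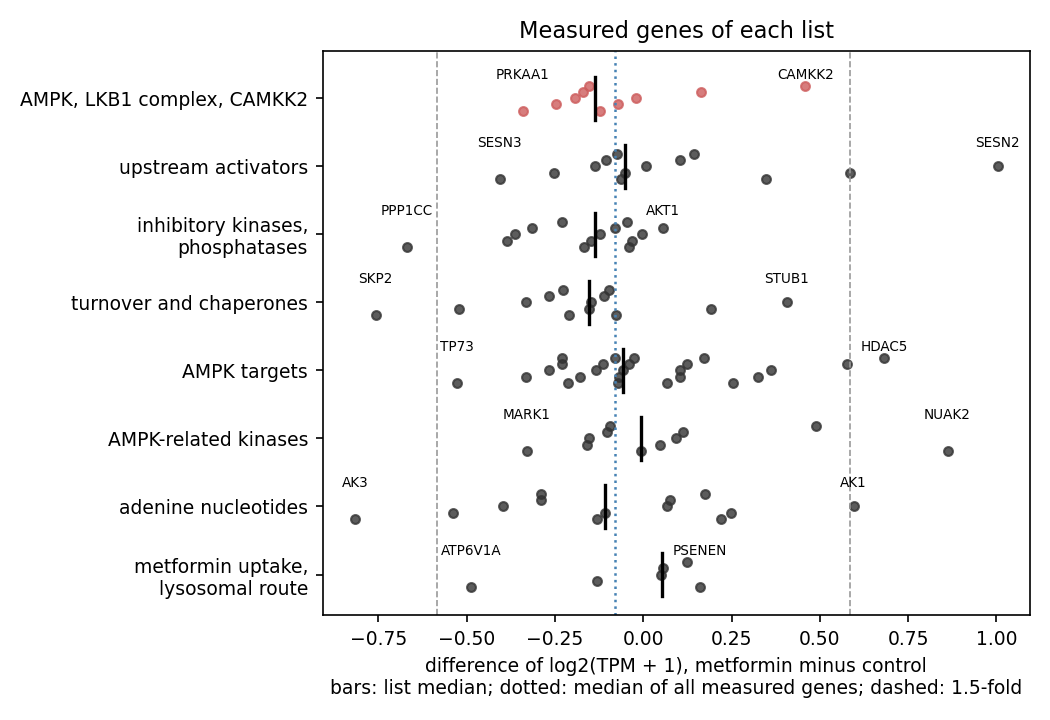
Difference of log2(TPM + 1), metformin minus control, for each measured gene of the 10 members (red) and of 7 pathway lists (dark), with list medians as bars, the median of all measured genes dotted and 1.5-fold dashed; the lowest and highest gene of each list are named. The members span -0.34 to 0.46, inside the dashed lines, and SESN2 is the rightmost gene.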

How the data were processed

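Per the labels, RNA was prepared with a stranded mRNA kit and mapped to hg19 with Bowtie2; the submitters' processing notes also name Trimmomatic 0.38 and HISAT2. Which program computed the abundances was not given in the sources used here. TPM (summing to 1000000 per library), FPKM and coverage were computed and deposited by the authors per gene ID. Symbols came from RefSeq (GRCh38, names only), which matched 27559 of 27685 IDs; rows of 353 repeated IDs were summed. Coordinates of genes are those of the deposited tables (hg19).

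Differences are of log2(TPM + 1), metformin minus control, over genes at 1 TPM or more in at least 1 library. Aligned bases are the highest ratio of coverage to FPKM. Among short genes of low coverage, 202 bases was the commonest total (31 of 175 genes in control, 44 of 170 in metformin) and was taken as 1 read pair. Pairs per gene came from FPKM and the canonical GENCODE 44 transcript length; their sum was 107% of all pairs for each library. Intervals of shares and summed levels are normal approximations on these pairs. They cover counting error only. The GC and length trend was a quadratic fit over genes. The interval and trend steps were run on simulated data as a check of the code. The simulated counts had counting noise only and known pair numbers, so the error of the estimated pairs was not tested. Alternatives are listed in the closing section. The members and lists were chosen with earlier results of these data known. Named were all members, their paralogs, metformin transporters, marker genes, list genes past 2-fold and, of each list with 5 or more measured genes, the 2 highest and 2 lowest differences at 5 TPM or more. Not every gene under this rule is reported here. Python 3.11.15, numpy 2.4.6, pandas 2.3.3, scipy 1.17.1 and biopython 1.88 were used.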

Additional observations from a re-analysis of the deposited data

How the results depend on the processing

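No member passed 1.5-fold or 2-fold under any of the 11 alternatives run: pseudocounts of 0.1 and 5, centring on the median of genes at 10 TPM or more, trimmed mean scaling, FPKM, coverage, removal of the GC and length trend, the highest row of repeated IDs, no minimum or a minimum of 5 TPM, and sums with overlapping same-strand spans. Some of these could not change the value of a member. Each member had 1 row per table, so the highest row gave the same values, and the minimum TPM settings only keep or drop genes. FPKM and coverage kept the pseudocount of 1 on smaller numbers, which draws differences toward 0. Over the 11 alternatives the median of the members ranged from -0.14 to -0.05. CAMKK2 and PRKAG1 lay above 0 and PRKAA1, PRKAB1, PRKAG2, CAB39 and STRADA below in each of them. PRKAA2 has no value at the minimum of 5 TPM. PRKAB2 and STK11 lay above 0 after centring and trimmed mean scaling, STK11 with FPKM and coverage, and PRKAA2 and PRKAB2 without the GC and length trend. The summed alpha ratio was 0.840 after centring, 0.834 with trimmed mean scaling and 0.921 without the GC and length trend. The summed gamma ratio was 1.09, 1.08 and, with coverage, 1.08. The gamma1 share change ranged from 4.68 to 6.25 points. Summing the genes that overlap PRKAB2 on its strand, with their rows elsewhere, gave a beta1 share of 47.1% in control, an extreme that credits other genes to PRKAB2. Centring moved the median of all genes by 0.09 and the genes past 1.5-fold from 760 higher and 990 lower to 1032 and 672 (trimmed mean scaling, 969 and 737). With 1 library per group, depth bears only on counting error, and by pairs from FPKM PRKAA2 had the fewest, 379 and 367, whereas by coverage CAB39 had 183 and 180.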
